A study of Danio rerio with 2 samples.

Results

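Hox genes encode homeodomain transcription factors that give cells along the body axis their positional identity. They lie in clusters, and their order in a cluster follows the order of their expression along the axis: members of low paralog number are expressed from the hindbrain and pharyngeal arches backwards, and members of high number in the posterior trunk and tail. The same genes also pattern the paired fins, and in mammals several act in blood progenitors and vessels. Zebrafish keep most clusters as duplicated copies, written with a or b after the gene number.

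The Hox genes were taken as all gene IDs whose Ensembl name starts with hoxa, hoxb, hoxc or hoxd followed by a digit, which gave 48 genes, 47 of them among the 21699 genes listed in at least 1 library. They comprise 11 genes of cluster A, 15 of B, 15 of C and 7 of D, with the duplicated copies of a cluster pooled. By paralog group, 10 genes belong to groups 1-3, 15 to groups 4-8 and 23 to groups 9-13. The name table carries the copy letter for 15 of them. The other 33 were set against RefSeq (assembly GRCz12tu), leaving out genes that the name table already gives with their letter. For 23 of them a single zebrafish gene of that name and number was left. hoxb3, for example, was matched to hoxb3a, and hoxb8 to hoxb8a because hoxb8b carries its letter. The remaining 10 share a name and are told apart by gene ID. hoxa4a, which RefSeq also lists, was not analysed here.

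RNA was sequenced from kdrl:GFP+ cells sorted from zebrafish embryos at 44 hours post fertilization, with 1 library of siblings that looked normal and 1 of embryos with the mutant morphology (siblings and mutants below). Both came from crosses of Tg(kdrl:GFP) fish heterozygous for tsu3994, an allele of gbf1, which encodes a Golgi exchange factor for ARF GTPases. The transgene drives GFP from the promoter of kdrl, a VEGF receptor gene of endothelial cells. The labels do not give the genotypes within the sibling pool, the number of embryos or the nature of the lesion. Summed expected counts came to 5657525 for siblings and 6169373 for mutants. As neither condition was replicated, all differences are between these 2 libraries, no test between the conditions was possible, and the 95% intervals cover counting error only.

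The sorted cells were not endothelial cells alone. kdrl was at 6.38 FPKM (fragments per kilobase of gene length, scaled to library size) in siblings and 21.3 FPKM in mutants, and the embryonic globin gene hbae1.2 at 159111 and 118855 FPKM. The 22 endothelial marker genes summed to 106 and 376 FPKM, with lyve1b, a venous and lymphatic marker, listed at 0 in the sibling library. gbf1 itself was at 3.44 and 6.13 FPKM, a level that does not check the genotype. Over genes that reached 20 expected counts in either library, the median mutant to sibling ratio of counts per library total was 1.24, so ratios are also given against this median gene.

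Hox transcripts formed a similarly small part of both libraries. They made up 0.0209% of sibling and 0.0208% of mutant counts (1180 and 1284 counts), a ratio of 0.998 (95% counting interval 0.92 to 1.08). Their summed level was 134 FPKM in siblings and 130 FPKM in mutants. Against the median gene the ratio was 0.81 (0.74 to 0.87), and with TMM scaling, which also places the typical gene near 1, it was 0.82 (0.76 to 0.89). In TPM, which leaves the median of all genes higher in the mutant library, the summed level was 1.08-fold. The count ratio multiplied by the TPM factor between the libraries was 1.11 (1.03 to 1.203). Ratios with intervals given in TPM below are such count ratios, which leave out gene lengths. The family's ratio was thus near 1 per library total, lower against the typical gene and higher in TPM. In bulk RNA, fewer cells of a type and less RNA per cell cannot be told apart.

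Most Hox genes were detected at low levels. Of the 48, 45 were listed in siblings and 46 in mutants, and 44 in both. Listed in the sibling library alone was hoxc11, with 2 counts. A gene named hoxa11 (ENSDARG00000104162) and hoxa13b were listed in the mutant library alone, with 2 and 1 counts, and a gene of the name table called hoxc13 (ENSDARG00000113877) in neither. At a floor of 3 counts, none of these 4 is a difference. The median Hox gene was at 1.78 FPKM in siblings and 1.48 FPKM in mutants, beside 2.27 and 2.92 FPKM over all genes. In each library 29 Hox genes stood at 1 FPKM or more, and 6 and 5 at 5 FPKM or more. The levels of the members were alike in the libraries, with Pearson's r of 0.92 on log2(FPKM + 1) and Spearman's rho of 0.89 on FPKM across the 48 genes, which share the same 2 libraries and are not independent replicates.

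**Figure D1:**
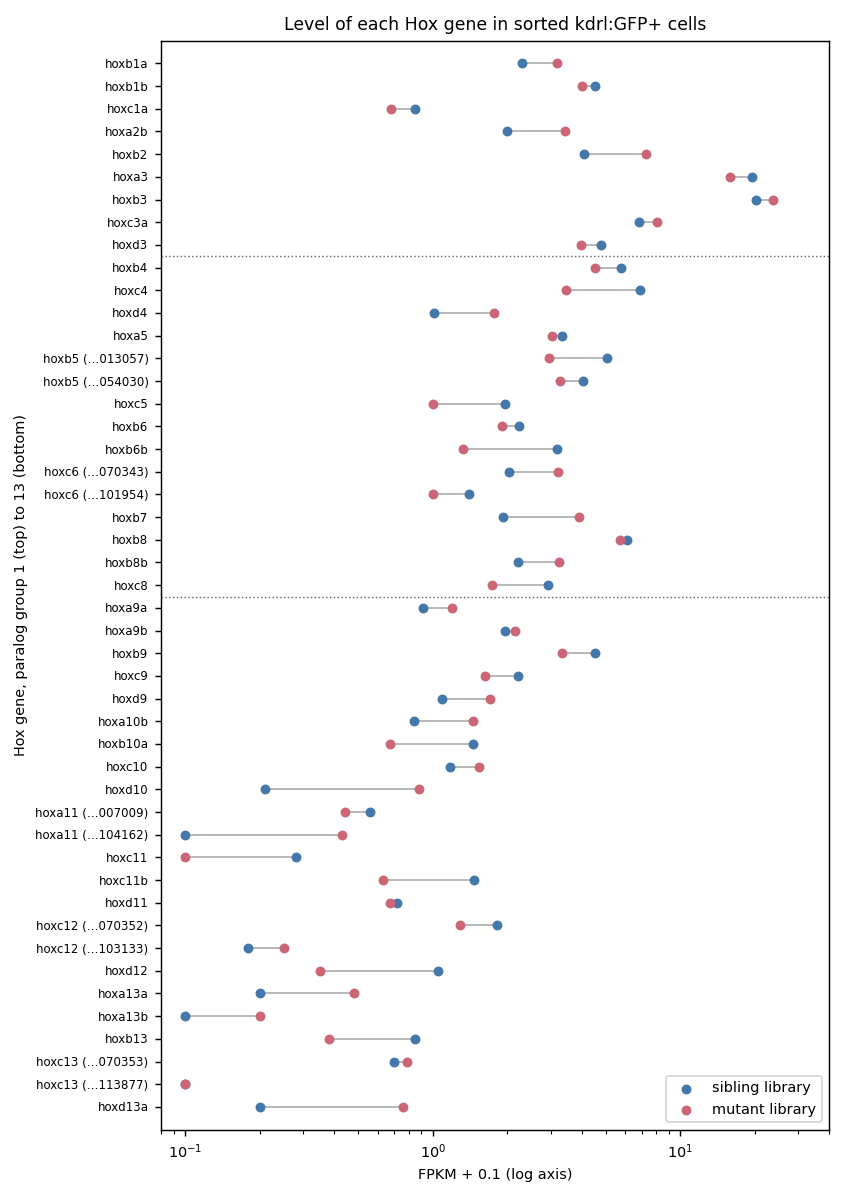
FPKM + 0.1 (log axis) of 47 of the 48 Hox genes in the sibling (blue) and mutant (red) library, ordered by paralog group from 1 at the top to 13 at the bottom; dotted lines separate groups 1-3, 4-8 and 9-13, and the end of the gene ID is added where a name is shared. hoxb3 and hoxa3 stand alone above 15 FPKM in both libraries, and groups 10 to 13 lie below 2 FPKM.

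Of the 3 ranges, groups 1-3 held the largest share of the Hox level, and within them paralog group 3. In mice and zebrafish, group 3 genes act in the hindbrain, the neural crest of the posterior pharyngeal arches and pharyngeal organs. Its 4 members summed to 50.8 FPKM in siblings and 51.1 FPKM in mutants, 38.0% and 39.5% of the Hox level. hoxb3 was the highest Hox gene in both libraries, at 20.04 FPKM (counting interval 17.7 to 22.6) in siblings and 23.6 FPKM (21.0 to 26.4) in mutants. hoxa3 was second, at 19.4 FPKM (16.0 to 23.3) and 15.7 FPKM (13.2 to 18.6). The FPKM intervals of these leading genes overlapped in siblings and not in mutants. They leave out the listed lengths, which went from 1035 to 1349 bases for hoxa3 and from 2223 to 2053 bases for hoxb3. By counts hoxb3 had 258 and hoxa3 114 in siblings, and 304 and 132 in mutants. The overlap is thus not read as a change in how the genes relate. hoxc3a was at 6.71 and 7.94 FPKM, and hoxd3 at 4.68 and 3.88 FPKM.

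By counts per library total none of the 4 group 3 genes differed between the libraries beyond counting error. The count ratios were 1.06 (0.82 to 1.38) for hoxa3, 1.08 (0.91 to 1.28) for hoxb3, 1.15 (0.74 to 1.78) for hoxc3a and 1.05 (0.68 to 1.63) for hoxd3. The lower FPKM of hoxa3 and hoxd3 in the mutant library therefore came with count ratios slightly above 1, because their listed lengths were 1035 and 1561 bases in the sibling and 1349 and 1970 bases in the mutant table. hoxa3 has 9 listed transcripts, hoxc3a 5, hoxb3 4 and hoxd3 3. In RefSeq the span of each group 3 gene, from start to end, overlaps those of neighbours in its own cluster: hoxc3a 5 of them, hoxb3a 3, hoxa3a 2 and hoxd3a 1. Shared exons in the annotation used for counting were not examined. The protocol marks no strand, so how reads are divided among overlapping Hox genes is uncertain.

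Group 2 was the 1 paralog group whose counting interval lay above 1 per library total, and it did so under each scaling run. Its genes, hoxa2b and hoxb2, pattern the hindbrain, and in mice and zebrafish hoxa2 genes set the identity of the second pharyngeal arch. hoxb2 was at 3.97 FPKM with 42 counts in siblings and 7.14 FPKM with 82 counts in mutants, a count ratio of 1.79 (1.22 to 2.66). hoxa2b was at 1.90 FPKM with 21 counts and 3.33 FPKM with 40 counts, a ratio of 1.75 (1.01 to 3.12). In sum they stood at 5.87 and 10.5 FPKM, with a count ratio of 1.78 (1.3 to 2.45). Against the median gene this ratio was 1.43 (1.05 to 1.98), while for each gene alone the interval then held 1 (0.99 to 2.15 for hoxb2 and 0.81 to 2.52 for hoxa2b). Among Hox genes hoxb2 ranked 11 in siblings and 4 in mutants. Group 2 is 1 of the 13 groups, and its interval was not widened for that number.

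Group 1 genes, the first to be activated along the axis and required for hindbrain segmentation, had a summed ratio whose interval held 1. The group summed to 7.98 and 8.33 FPKM, with a count ratio of 0.95 (0.72 to 1.26). hoxb1b was at 4.44 and 3.89 FPKM (41 and 39 counts) and hoxb1a, a marker of hindbrain rhombomere cells, at 2.19 and 3.08 FPKM (19 and 29 counts, ratio 1.40, 0.76 to 2.64). hoxc1a had 37 and 31 counts, a ratio of 0.77 (0.46 to 1.27).

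**Figure D2:**
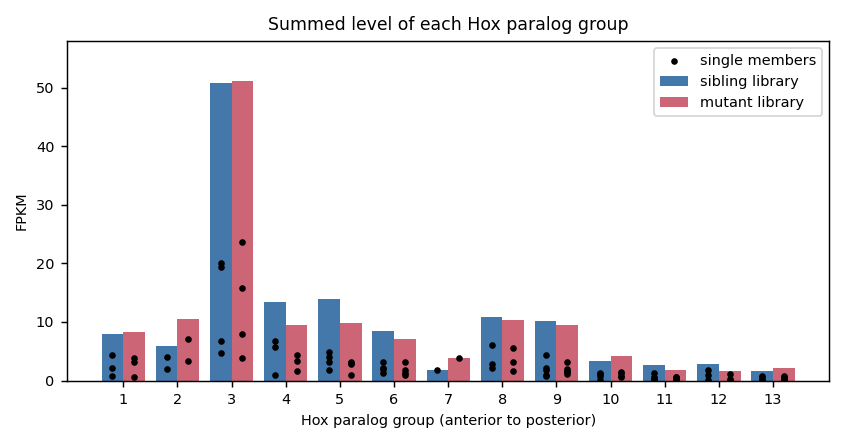
Summed FPKM of the Hox genes of each paralog group, 1 to 13 on the x axis, in the sibling (blue) and mutant (red) library; bars start at 0, black points are the same 47 single genes, and no error bars are drawn since there is 1 library per condition. Group 3 stands at 50.8 and 51.1 FPKM, every other group is below 14 FPKM, and group 2 is higher and groups 4 and 5 are lower in the mutant library.

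The genes of the central groups, which are expressed through the posterior hindbrain, spinal cord and trunk mesoderm, were lower in sum in the mutant library. Groups 4-8 stood at 48.5 and 40.5 FPKM, with 370 and 335 counts, a count ratio of 0.83 (0.71 to 0.97). In TPM the ratio was 0.92 (0.79 to 1.07), with an interval that held 1. Of the 15 genes, 4 were higher and 11 lower by FPKM. All 4 genes of group 5 were lower, and their sum was 13.96 and 9.84 FPKM, with a count ratio of 0.68 (0.50 to 0.90), and 0.75 (0.56 to 1.006) in TPM. Group 4 had 13.4 and 9.45 FPKM and a count ratio of 0.78 (0.57 to 1.05), group 6 a ratio of 0.87 (0.58 to 1.29) and group 8 of 0.94 (0.70 to 1.26). hoxb7, the sole gene of group 7, was at 1.83 and 3.80 FPKM with 9 and 20 counts, a ratio of 2.04 (0.89 to 5.08).

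The central genes whose intervals lay below 1 belong to clusters B and C. hoxc4 was at 6.79 FPKM with 45 counts in siblings and 3.34 FPKM with 24 counts in mutants, a count ratio of 0.49 (0.29 to 0.82), and ranked 3 and 10 among Hox genes. A gene named hoxb5 (ENSDARG00000013057) was at 4.94 FPKM with 51 counts and 2.85 FPKM with 32 counts, a ratio of 0.58 (0.36 to 0.91). Its namesake (ENSDARG00000054030) was at 3.95 and 3.15 FPKM, with a ratio of 0.79 (0.48 to 1.31). hoxb6b was at 3.08 FPKM with 21 counts and 1.22 FPKM with 9 counts, a ratio of 0.39 (0.16 to 0.90). For hoxc4, that hoxb5 gene and hoxb6b the interval also lay below 1 against the median gene and with TMM scaling. In TPM it did so for hoxc4 and hoxb6b, whereas that hoxb5 gene was at 0.64 (0.40 to 1.02). In RefSeq hoxc4a overlaps hoxc3a, hoxb6b overlaps hoxb1b, and hoxb5a and hoxb5b overlap hoxb3a and hoxb1b. These are overlaps of gene spans, and shared exons were not examined. The expected counts of hoxc4, that hoxb5 gene and hoxb6b were whole numbers in both libraries, so no fraction of a read shows in them. How far these single ratios depend on the division of reads was not tested.

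The other central genes with enough counts held a ratio of 1 within their intervals. hoxb4, whose human counterpart is known for the expansion of blood stem cells in culture, was at 5.67 and 4.44 FPKM (40 and 34 counts, ratio 0.78, 0.48 to 1.26). hoxb8 was at 6.0 and 5.62 FPKM (63.0 and 64 counts, ratio 0.93, 0.65 to 1.34). hoxd4 was at 0.91 and 1.67 FPKM, hoxb8b at 2.10 and 3.12 FPKM, and the gene named hoxc6 with more counts (ENSDARG00000070343) at 1.93 and 3.11 FPKM, with ratios of 1.83 (0.88 to 4.02), 1.48 (0.71 to 3.22) and 1.70 (0.86 to 3.53). The remaining 5 genes of the central groups had fewer than 20 counts in both libraries and levels of at most 3.22 and 2.94 FPKM, and all 5 were lower by FPKM in the mutant library.

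Posterior genes were scarce in both libraries. The 23 genes of groups 9-13, expressed in the posterior trunk, tail and outer fin, summed to 20.4 FPKM in siblings and 19.1 FPKM in mutants, a count ratio of 0.898 (0.73 to 1.104). Against the median gene the ratio was 0.73 (0.59 to 0.89) and with TMM scaling 0.74 (0.60 to 0.91), both with intervals below 1. They made up 15.3% of the sibling and 14.8% of the mutant Hox level. As a share of Hox counts this was 16.2% (exact binomial interval 14.1 to 18.4) and 14.6% (12.7 to 16.6). hoxb9 was the sole posterior gene with at least 20 counts, at 4.43 FPKM with 66.3 counts and 3.24 FPKM with 52.7 counts (ratio 0.74, 0.50 to 1.07). Against the median gene its ratio was 0.59 (0.41 to 0.87). The other 22 reached at most 2.10 and 2.04 FPKM, with 12 higher and 9 lower by FPKM in the mutant library, and no single difference among them was detectable at this depth.

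By cluster, the posterior genes did not lie on one side. In cluster A, 6 of 7 posterior genes were higher by FPKM in the mutant library and 5 by counts per library total. They had 37.2 and 51.2 counts in all and a count ratio of 1.26 (0.81 to 1.99). Among those higher by FPKM, hoxa11 (ENSDARG00000104162) had 0 and 2 counts and hoxa13b 0 and 1. hoxa9a, also higher by FPKM, had a count ratio of 0.80 (0.25 to 2.53). In cluster D, whose posterior genes act in fin outgrowth along with those of cluster A, 3 of 5 were higher, with 22 and 36 counts and a ratio of 1.501 (0.86 to 2.68). hoxd10 had 1 and 8 counts and hoxd13a 1 and 7. In cluster B all 3 posterior genes, hoxb9, hoxb10a and hoxb13, were lower, with 82.3 and 59.7 counts and a ratio of 0.67 (0.47 to 0.95). In cluster C, 3 of 8 were higher and 4 lower, with a ratio of 0.73 (0.47 to 1.13). The intervals of clusters A, C and D held 1 and that of cluster B did not, although in TPM it did (0.75, 0.53 to 1.06).

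As a whole, cluster C was lower per library total, and the intervals of the other clusters held 1. With counts multiplied by the TPM factor, the interval of cluster C held 1 (0.88, 0.72 to 1.08). Those of clusters A (1.301, 1.07 to 1.58) and D (1.45, 1.07 to 1.97) then lay above 1. By summed TPM levels, which use the listed lengths, the ratios of clusters A and D were 1.09 and 1.25. Cluster C summed to 29.3 FPKM in siblings and 23.9 FPKM in mutants, a count ratio of 0.79 (0.65 to 0.97). Its groups 4-8 had 96 and 72 counts (ratio 0.69, 0.50 to 0.94), and its groups 1-3 had 77 and 81 counts (0.96, 0.70 to 1.34). Cluster B, the largest contributor, summed to 66.9 and 67.8 FPKM, 50.1% and 52.3% of the Hox level, with a count ratio of 0.98 (0.88 to 1.09). Cluster A had 29.1 and 28.4 FPKM and a ratio of 1.17 (0.96 to 1.42). Cluster D had 8.36 and 9.41 FPKM and a ratio of 1.303 (0.96 to 1.77). Against the median gene the ratios were 0.64 (0.53 to 0.78) for cluster C and 0.79 (0.71 to 0.88) for cluster B, and those of clusters A and D held 1, at 0.94 (0.78 to 1.15) and 1.05 (0.78 to 1.43).

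**Figure D3:**
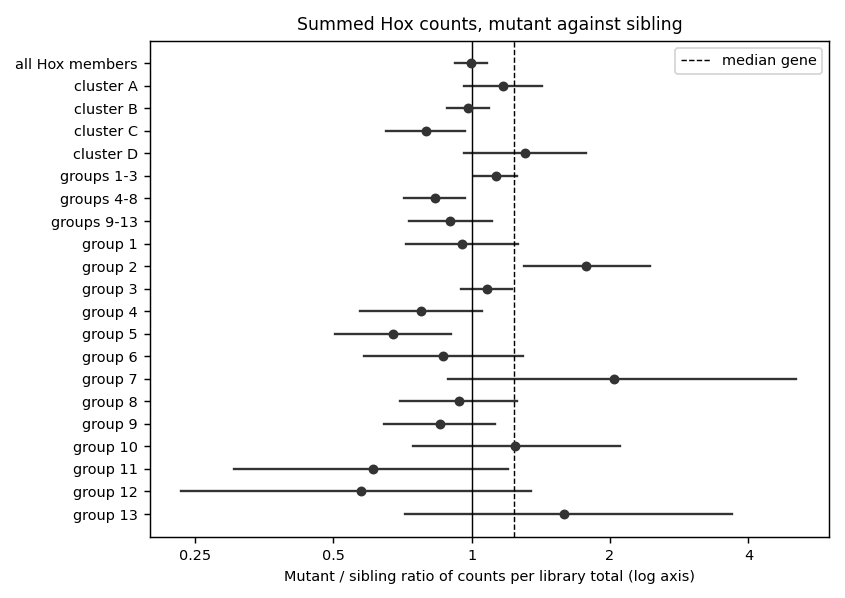
Mutant to sibling ratio of summed Hox counts per library total (log axis) with 95% exact counting intervals for all Hox genes, the 4 clusters, the 3 ranges of paralog groups and each of the 13 groups; the solid line is a ratio of 1 and the dashed line the median gene at 1.24. The interval lies above 1 for groups 1-3 and group 2, and below 1 for cluster C, groups 4-8 and group 5.

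Read as a measure of body position, the Hox mixture of the sorted cells had its largest share in groups 1-3 in both libraries. Their share of the Hox counts was larger in the mutant library. Genes of low number are also expressed further back along the axis. Without cells of known position to compare, this mixture does not place the sorted cells. Weighted by FPKM, the mean paralog number was 4.89 ± 0.087 in siblings and 4.74 ± 0.085 in mutants (SD of counting error, 1 library each). The difference of -0.14 had a counting SD of 0.12, so these FPKM-weighted means do not differ beyond counting error. Weighted by expected counts, which do not use the listed lengths, the means were 4.74 and 4.51, and no counting SD was computed for them. Groups 1-3 made up 48.4% of the sibling and 54.0% of the mutant Hox level, and 52.5% (49.6 to 55.3) and 59.3% (56.6 to 62.0) of the Hox counts. Per library total the count ratio of groups 1-3 was 1.13 (1.01 to 1.26), which turned to 0.91 (0.82 to 1.02) against the median gene and to 0.93 (0.84 to 1.04) with TMM scaling, whereas groups 4-8 were at 0.67 (0.58 to 0.78) and 0.68 (0.59 to 0.80). In TPM groups 1-3 were at 1.26 (1.13 to 1.40). Groups 4-8 held 31.4% (28.7 to 34.1) and 26.1% (23.7 to 28.6) of the counts. Relative to groups 1-3, the mutant to sibling ratio of groups 4-8 was 0.74 (exact conditional interval 0.61 to 0.89) and that of groups 9-13 was 0.80 (0.63 to 1.01). These ratios between Hox groups of the same libraries do not depend on the scaling between the libraries. They can depend on how reads were divided, which the counting intervals do not cover. By gene spans in RefSeq the group 3 genes overlap central genes of their own clusters, hoxb1b overlaps hoxb5b and hoxb6b, and the protocol marks no strand. Shared exons were not examined, and the size of such an effect was not tested. The 2 highest genes, hoxb3 and hoxa3, alone held 29.5% and 30.3% of the level, so a mean over the family rests largely on group 3.

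Calls among the Hox genes were set against those over all genes. Of 7 Hox genes that reached 5 FPKM and 20 expected counts, none reached a log2 fold of 1 or -1 on FPKM + 1, where 7.72% of 8641 genes were higher and 1.05% lower. The nearest was hoxc4, at -0.84, and at the other end stood hoxb2, at 0.71. The limits had to be reached in either library: hoxc4 reached 5 FPKM in siblings alone and hoxb2 in mutants alone. hoxc4 reached the limit with a pseudocount of 0.1 and with the scalings that bring the typical gene closer to 0. Of 20 Hox genes with at least 20 expected counts, the counting interval lay above 1 for 2 (hoxb2 and hoxa2b) and below 1 for 3 (hoxc4, hoxb5 and hoxb6b), where it did so for 40.1% and 7.51% of 13656 genes. These 20 include genes that reached 20 counts only in the library where they are higher, such as hoxb7 in mutants (9 and 20 counts). hoxb6b, among the 3 below 1, did so in siblings alone (21 and 9 counts). Against the median gene, none of the 20 lay above and 4 lay below (the same 3 and hoxb9), beside 18.9% and 20.9% of all genes. With so few members, these shares are not read as particular to the family.

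**Figure D4:**
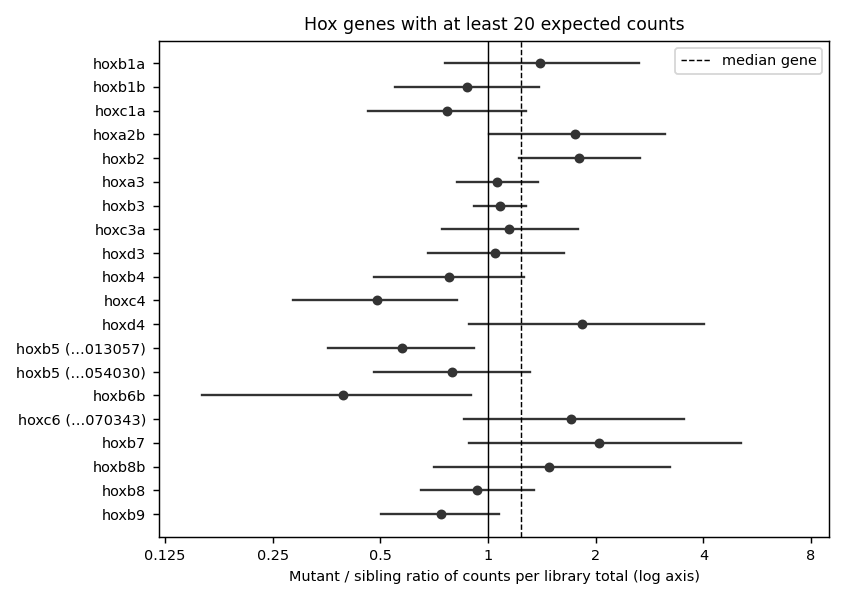
Mutant to sibling ratio of counts per library total (log axis) with 95% exact counting intervals for the 20 Hox genes that reached 20 expected counts, in the order of their paralog groups; the solid line is a ratio of 1 and the dashed line the median gene at 1.24. hoxb2 and hoxa2b lie above 1, and hoxc4, the hoxb5 gene ENSDARG00000013057 and hoxb6b lie below it.

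Of the 30 Hox genes with a mean FPKM of at least 1, 13 were higher and 17 lower by FPKM in the mutant library. Their log2 folds ran from -0.88 (hoxb6b) to 0.76 (hoxb7), with a median of -0.13. Over all 14855 genes at this level the median was 0.25, and 72.2% of genes were above 0, against 43.3% of the Hox genes. On FPKM + 1 none of the 30 was 2-fold different, beside 7.22% of all genes higher and 1.29% lower. The added 1 keeps low genes from reaching this limit. By FPKM itself hoxb7 (1.83 and 3.80) was past 2-fold higher. hoxc4 (6.79 and 3.34), hoxb6b (3.08 and 1.22) and hoxc5 (1.85 and 0.90) were past 2-fold lower. The counting intervals of hoxb7 and hoxc5 held 1.

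The genes that act with Hox proteins had a summed ratio close to 1. TALE homeodomain proteins of the Pbx, Meis and Pknox families bind DNA together with Hox proteins, and 12 of their genes summed to 218 FPKM in siblings and 211 FPKM in mutants (count ratio 0.98, 0.94 to 1.03). None of 11 with a mean FPKM of at least 1 differed 2-fold on FPKM + 1, the scale of all 2-fold counts of the lists, and their median log2 fold was 0.01. pbx4, the main zebrafish Pbx gene of early development, was at 40.2 and 46.7 FPKM, with a count ratio of 1.16 (1.06 to 1.26). meis2 was at 38.5 and 30.5 FPKM (0.73, 0.65 to 0.83), meis2b at 30.6 and 24.1 FPKM (0.79, 0.69 to 0.89) and pbx3 at 17.2 and 12.3 FPKM (0.80, 0.65 to 0.99). The summed level of the cofactors thus exceeded that of all Hox genes in both libraries.

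Regulators that set Hox expression were counted next. Of 18 with a mean FPKM of at least 1, for retinoic acid synthesis, breakdown and receptors, hindbrain segmentation and gdf11, none differed 2-fold on FPKM + 1. Their median log2 fold was 0.23, beside 0.25 over all genes at this level. For 6 of the list the counting interval lay above 1 and for 1 below, beside 40.1% and 7.51% of all genes with at least 20 counts. aldh1a2, the main retinoic acid synthesizing enzyme of the embryo trunk, was at 4.51 and 7.18 FPKM (count ratio 1.59, 1.14 to 2.22). aldh1a3, a further such enzyme, was at 1.59 and 0.53 FPKM with 22 and 8 counts. The receptor gene rarg with the lower level was at 1.37 and 3.36 FPKM, and rxrbb at 2.65 and 5.39 FPKM. No Cdx gene was among the 18. cdx4, which activates posterior Hox genes in zebrafish, had 0 and 1 counts, and cdx1a and cdx1b were not found by name.

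Polycomb and Trithorax genes, which hold Hox clusters silent or active, had a median log2 fold of 0.24 over 26 genes, beside 0.25 over all genes. ezh1, which encodes a histone H3 methyltransferase, was at 1.34 and 4.95 FPKM (count ratio 3.53, 2.14 to 6.1). It was the 1 of the 26 at least 2-fold higher on FPKM + 1, beside 7.22% of all genes with a mean FPKM of at least 1. Counting intervals lay above 1 for 12 of the 26 and below 1 for 0, beside 40.1% and 7.51% of all genes with at least 20 counts. cbx8 (ENSDARG00000098771), cbx7a and a gene named kdm6b had log2 folds of 0.91, 0.86 and 0.75, and that cbx8 gene had a count ratio of 2.37 (1.33 to 4.43). The methyltransferase genes ezh2, at 12.7 and 11.5 FPKM, and kmt2a, at 2.84 and 4.11 FPKM, stood below 2-fold.

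Genes listed for the head in front of Hox expression, and for the tailbud, were present too. The 23 genes listed for transcription factors of the forebrain, midbrain and eye summed to 122 and 138 FPKM (count ratio 1.07, 0.99 to 1.14). The 48 Hox genes summed to 134 and 130 FPKM, and such sums depend on how many genes were listed. Not all of the 23 are confined to the head, as the genes named pax2 are also among the pronephros markers below. A gene named otx2 was at 17.7 and 28.2 FPKM (1.31, 1.08 to 1.58), and one named pax2 (ENSDARG00000032578) at 4.37 and 1.79 FPKM, a log2 fold of -0.94. Most tailbud genes were at low levels, and 5 of 16 had a mean FPKM of at least 1. The 16 summed to 15.1 and 12.5 FPKM (0.80, 0.64 to 0.997). evx2, the neighbour of cluster D, was at 2.54 FPKM with 49 counts and 1.1 FPKM with 23 counts (0.43, 0.25 to 0.72). wnt5b had 38 and 45 counts and evx1 34 and 32, both with intervals that held 1. Of the 5 genes, evx2 was the 1 with an interval clear of 1, and the lower sum rests largely on it. A sum without evx2 was not computed, so the ratio is not read as a trait of the whole list.

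Lateral plate and pectoral fin genes diverged. Of 16, 3 stood 2-fold or more higher and 2 that much lower, beside 7.22% and 1.29% of all genes with a mean FPKM of at least 1. The median log2 fold was 0.45. hand2, a lateral plate factor, was at 2.01 and 9.06 FPKM and sall4 at 13.3 and 40.9 FPKM. The fin fold actinotrichia genes and1 and and2 were at 11.5 and 3.0 FPKM and at 9.73 and 0.87 FPKM. The remaining gene of the 3 higher ones was fgf10 (ENSDARG00000100475), with 1 and 6 counts and a counting interval that held 1 (0.67 to 253).

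Marker sums of several cell types lay far from a ratio of 1. The endothelial markers had a summed count ratio of 3.36 (3.19 to 3.55), with 17 of 21 at least 2-fold higher. The skeletal muscle markers had one of 0.28 (0.27 to 0.30), with 15 of 17 at least 2-fold lower and sums of 1089 and 311 FPKM. Beside the 2-fold counts of this paragraph stand 7.22% higher and 1.29% lower of all genes with a mean FPKM of at least 1. Epidermal markers had a ratio of 0.65 (0.63 to 0.66), at 1203 and 771 FPKM. Mural and fibroblast markers, at 283 and 403 FPKM, had a ratio of 1.28 (1.24 to 1.33), with 8 of 16 at least 2-fold higher. Neural markers stood at 1.01 (0.97 to 1.05), with 567 and 564 FPKM. Of 18, none was at least 2-fold higher and 1 was that much lower (stmn2, ENSDARG00000033234). Their counting intervals lay above 1 for 4 and below 1 for 5, beside 40.1% and 7.51% of all genes with at least 20 counts. The neural sum near 1 thus joins members that went opposite ways. Neural crest and pigment markers stood at 1.05 (0.91 to 1.21) with a median log2 fold of -0.25. In that last list foxd3, a neural crest factor, was listed at 0 in the sibling library and had 26 counts in the mutant library. sox10 was at 1.61 and 3.26 FPKM. The other way went tyrp1 (ENSDARG00000056151), with 33 and 14 counts (0.39, 0.19 to 0.75), and dct, with 39 and 18 counts (0.42, 0.23 to 0.76). Erythroid, myeloid, blood stem cell, cardiac and pronephros markers had summed count ratios of 0.77, 1.48, 1.43, 0.78 and 1.40. Of 13 erythroid genes with a mean FPKM of at least 1, intervals lay below 1 for 11 and above 1 for 2, gata1a and klf1. Of 11 such myeloid genes they lay above 1 for 6 and below 1 for 1, and of 10 pronephros genes for 5 and 1. The shares of all genes with at least 20 counts are again 40.1% above and 7.51% below. With so few genes, the myeloid and pronephros counts are not read as particular to these lists. Among the cardiac genes actc1a, which muscle also expresses, had the most counts, 128 and 63.5. Of 5 cardiac genes with a mean FPKM of at least 1, 3 were at least 2-fold higher and 1 lower, with a median log2 fold of 1.07. The part of these differences in the Hox values of groups 2, 4-8 and 9-13 was not tested.

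**Figure D5:**
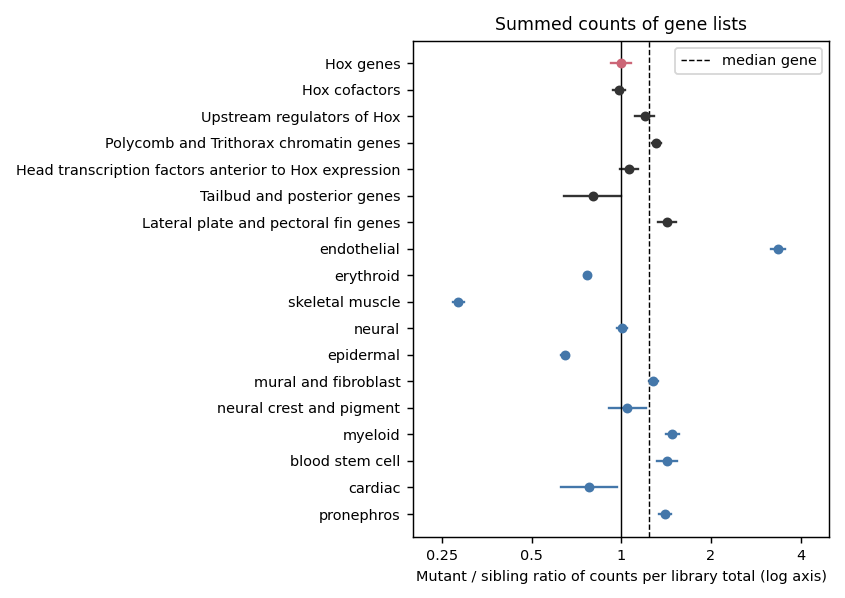
Mutant to sibling ratio of summed counts per library total (log axis) with 95% exact counting intervals for the Hox genes (red), 6 lists of related or regional genes (black) and 11 lists of cell type markers (blue); the solid line is a ratio of 1 and the dashed line the median gene at 1.24. Hox genes at 0.998 lie beside their cofactors at 0.98 and the neural markers at 1.01, between skeletal muscle at 0.28 and endothelial markers at 3.36. A sum near 1 can join members that differ in opposite directions.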

How the data were processed

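The submitters' processing notes name the build GRCz10 and the tools RSEM, Bowtie2, BWA and bcl2fastq 2.16 without their roles or the annotation release. The authors deposited, per library and gene, a length in bases, an expected count, which is not normalized, and an FPKM value without scaling between libraries. Absent genes were set to 0. Symbols, written in lower case, were found by Ensembl ID for 19802 of 21699 genes. Log2 folds are of (mutant FPKM + 1) over (sibling FPKM + 1) and understate changes of low genes. Count ratios use rounded expected counts divided by library sums, with exact conditional binomial 95% intervals. PCR copies are not independent molecules, so these cover counting error only. Named are all Hox genes with at least 20 counts, genes in 1 or no table, gbf1, kdrl, hbae1.2 and of each list up to 4 genes that differed most; single other genes (ezh2, kmt2a, cdx4, pbx4, lyve1b, posterior genes of few counts and genes with paralog context) were added after their values were seen. The members and the 6 gene and 11 marker lists were chosen with earlier results of these data known. TMM factors came from edgeR 4.0.16, other values from Python 3.11.15 with SciPy 1.17.1. The interval and fold calculations were tested on simulated counts with known folds. Alternatives were other scalings, pseudocounts, filters and weights. Planned protein features were not computed. The values of 1 Hox gene with few counts are not reported singly; it is included in the sums and counts.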

Additional observations from a re-analysis of the deposited data

How the results depend on the processing

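Of 134 values recomputed under alternatives, 66 stayed within the counting interval of the value reported (or, for counts of genes, within 1.5 times) and 68 did not, the latter mostly through scaling and weighting. hoxc4 became 2-fold lower, 1 gene in place of 0, with a pseudocount of 0.1, TMM, median-of-ratios scaling, rescaling without the 10 highest genes, or centring. The number of Hox genes at least 2-fold higher was 0 under every alternative run. In that order of the 4 scalings, the median log2 fold of Hox genes was -0.32, -0.33, -0.28 and -0.38, the summed level ratio 0.80, 0.79, 0.86 and 0.82, that of cluster B 0.84, 0.83, 0.90 and 0.85, and that of groups 1-3 0.89, 0.88, 0.96 and 0.91, so groups 1-3 turned from above to below 1 under all 4. Groups 4-8 were at 0.69 with TMM, 0.68 with median of ratios and 0.70 once centred, and clusters A and C at 0.80 and 0.67 with median of ratios. In TPM the median was -0.0055, the summed ratio 1.08 and that of cluster B 1.13. These scalings move the median log2 fold of all genes from 0.25 to 0.02 (TMM), 0.01 (median of ratios), 0.11 (without the 10 highest) and 0.37 (TPM).

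Without its highest member, hoxa3, cluster A had a ratio of 1.31. Without hoxb3, the mean paralog number was 5.22 for siblings and 5.13 for mutants, the share of groups 9-13 18.0% in both (17.96% and 18.04%), and the shares of clusters A, B and C 25.6%, 41.3% and 25.8% against 26.8%, 41.7% and 22.6%. With the 20 genes of at least 20 counts alone, the mean was 3.95 and 3.83, groups 9-13 held 4.19% and 3.09%, cluster B 59.3% and 62.2%, cluster C 15.3% and 14.3%, and in the mutant library clusters A and D 18.2% and 5.30%. With log2(FPKM + 1) as the weight, the mean was 5.76 and 5.71, groups 9-13 held 24.99% and 25.4%, cluster B 46.0% and 44.7%, cluster C 27.3% and 23.7%, cluster D 9.02% and 10.9%, and cluster A 17.7% in the sibling library. By counts the mean was 4.74 and 4.51, and clusters A, B and C held 16.4%, 58.3% and 18.9% against 19.2%, 57.4% and 15.0%. The mean was lower in the mutant library under each of these weights, while the order of the libraries in the share of groups 9-13 turned without hoxb3 and with the log2 weight. With 1 library per condition no replicate could be left out, and variation between embryos, sorts and preparations is not measured. No paired analysis was possible because each group has a single library. Depth limits single genes: 28 of the 48 Hox genes have under 20 counts in both libraries, and none of their intervals is clear of 1.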

Other observations

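Listed gene lengths differed by more than 1 base between the 2 tables for 9 Hox genes, among them all 4 of group 3. hoxa9a was listed at 1752 bases in the sibling and 1069 in the mutant table, with FPKM values of 0.81 and 1.1 on 8.21 and 7.24 counts. hoxc10 was at 1463 and 1242 bases, with 1.07 and 1.43 FPKM on 9 and 11 counts, and hoxc5 at 956 and 732 bases, with 1.85 and 0.90 FPKM on 10 and 4 counts. Of the 47 Hox genes listed in either table, 32 have 1 listed transcript, 9 have 2 and 6 have 3 or more.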
